A study of Homo sapiens with 8 samples.

Results

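The genes described here are the 3 human Slit ligands (SLIT1, SLIT2 and SLIT3), the 3 Robo receptors of the nervous system (ROBO1, ROBO2 and ROBO3) and the 3 srGAP proteins (SRGAP1, SRGAP2 and SRGAP3). They were taken by name, 9 genes of the 58217 to which a measured transcript could be assigned, and all 9 were among the 18201 genes with enough reads to be tested. RNA was sequenced from oligodendrocyte precursor cells (OPCs) made from the H9 line of human embryonic stem cells after 2 days on 1 of 3 coatings and without forced expression of SOX10. The coatings were Matrigel, the basement membrane extract that served as the control (2 libraries, numbered 2 and 3), full-length recombinant vitronectin (VN, 3 libraries), and VNP2, a designed vitronectin-derived peptide fused to mussel adhesive protein (3 libraries). All groups came from 1 cell line, and the study describes the samples as different cells and its experiments as repeated, without saying for each library whether it was a culture of its own. The p-values below therefore measure the spread between these libraries, which may be technical.

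Slits are large secreted proteins that bind Robo receptors and are best known for repelling growing axons from the midline of the nervous system, where floor plate cells release them. Robos have no enzyme activity of their own and act through adaptor and actin-regulating proteins bound to their intracellular part. The srGAPs are among these: they switch off small GTPases and bend membranes through their F-BAR domain. Slits and Robos also steer migrating cells, and OPCs have been reported to respond to Slits.

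The levels per transcript length and sequencing depth (TPM) put SLIT2 first among the 9 genes at a mean of 134.9 TPM over the 8 libraries, followed by SLIT1 at 71.9 TPM. SRGAP2 (37.2 TPM), ROBO1 (24.9 TPM) and SRGAP3 (20.9 TPM) came next. ROBO2 lay at 14.98 TPM, SRGAP1 at 10.1 TPM, SLIT3 at 8.30 TPM and ROBO3 at 5.73 TPM. Some neighbours in this order overlapped between libraries: ROBO1 ranged from 20.6 to 28.7 TPM and SRGAP3 from 16.9 to 23.6 TPM, and SLIT3 and ROBO3 overlapped as well. The cells thus carried transcripts of both ligands and receptors, with the Slits in excess of the Robos by 3.77 to 5.62 times in summed TPM. Bulk RNA cannot tell fewer cells of a type from less RNA per cell, and this holds for every level below.

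Total estimated counts were similar in all libraries, between 37997896 and 39429453. Of the OPC markers, OLIG1, OLIG2, NKX2-2, PDGFRA and CSPG4 were measured well enough to test, while SOX10 was near 0 with 20 estimated counts over all 8 libraries. The library VN 1 stood apart from VN 2 and VN 3 (median chi-square per gene of 2.26 and 2.62, against 0.784 between VN 2 and VN 3 and 0.455 from sampling alone).

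The 250 bases before the RefSeq start of SLIT1 (chr10:97185960-97186209, minus strand, GRCh38.p14) and of SLIT3 (chr5:169301140-169301389, minus strand) are shown because these 2 Slits rose on VNP2. They are written 5′ to 3′ with motif matches in capitals.
SLIT1: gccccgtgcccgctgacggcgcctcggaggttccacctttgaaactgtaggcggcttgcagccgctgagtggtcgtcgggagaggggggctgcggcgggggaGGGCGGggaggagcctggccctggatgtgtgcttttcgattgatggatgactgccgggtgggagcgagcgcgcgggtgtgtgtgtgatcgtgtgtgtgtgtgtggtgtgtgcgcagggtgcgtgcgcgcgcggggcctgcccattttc
SLIT3: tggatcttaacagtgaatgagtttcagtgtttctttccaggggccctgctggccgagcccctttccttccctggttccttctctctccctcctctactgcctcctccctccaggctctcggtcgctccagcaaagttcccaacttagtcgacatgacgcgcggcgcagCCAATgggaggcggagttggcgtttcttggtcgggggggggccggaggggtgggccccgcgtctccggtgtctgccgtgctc
Both strands were searched for the GC box GGGCGG, for the box named CCAAT, for the TATA box TATAAA and for GGAATG, the core bound by TEAD factors. No match overlapped another. The SLIT1 window held 1 GC box, starting at -148 from the RefSeq start, and none of the other motifs. The SLIT3 window held 1 CCAAT, at -82, and none of the others. These matches are descriptions, since 42.6% of the 35116 promoter windows of this length hold the GC box, 32.01% the CCAAT box, 10.7% the TATA box and 11.9% the TEAD core. The windows contained 68.4% and 62.8% G and C, against a median of 58.0% over all windows. The SLIT2 window is not printed because its RefSeq start lies 1659 bases before the start of the main measured SLIT2 transcript; for SLIT1-201 this distance was 39 bases and for SLIT3-201 357 bases.

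SRGAP3 produced a pair of full-length coding transcripts that differ in exon 12 of 22, and their proportion varied with the coating. The exon of SRGAP3-201 has 31 bases (chr3:9028100-9028130, minus strand, GRCh38) and that of SRGAP3-202 has 103 bases (chr3:9032650-9032752, minus strand). The difference of 72 bases keeps the reading frame and amounts to 24 codons. The sequences are from the GENCODE transcripts.
SRGAP3-201: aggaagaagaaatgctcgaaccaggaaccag
SRGAP3-202: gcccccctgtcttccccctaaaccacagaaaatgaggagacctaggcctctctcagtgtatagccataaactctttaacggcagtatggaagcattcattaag

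SLIT2 and SLIT3 each carry a copy of the microRNA gene for miR-218 in an intron, on the same strand as the host (MIR218-1 at chr4:20528275-20528384 in SLIT2, MIR218-2 at chr5:168768146-168768255 in SLIT3). Both give the same mature RNA miR-218-5p, shown with its seed, bases 2 to 8, in capitals because the host transcripts are measured below. Their other mature products, named 3p, differ in sequence and are not shown. The polyadenylated RNA libraries do not measure the microRNA itself.
hsa-miR-218-5p: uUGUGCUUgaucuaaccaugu

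SLIT1 (ENSG00000187122, chr10:96998038-97185920, minus strand, GRCh38 as for all genes below) was the member that differed most between the coatings. The Matrigel libraries held 8762 and 8463 normalized counts, the VN libraries 9435, 8869 and 8702, and the VNP2 libraries 17576, 17356 and 18282. The VNP2 libraries were all far above the rest, whereas those on VN and Matrigel overlapped. SLIT1 was 1.97-fold higher on VNP2 than on VN (95% interval 1.86 to 2.09; log2 fold change 0.98, SE 0.038, adjusted p = 2.03e-06 by edgeR's quasi-likelihood test) and 2.06-fold higher than on Matrigel (1.93 to 2.20; adjusted p = 1.77e-07). The difference between VN and Matrigel did not pass (log2 fold change 0.06, SE 0.043, adjusted p = 0.355; fold between 0.979 and 1.116). Among the 9840 genes with a mean of at least 500 normalized counts, SLIT1 had the smallest p between VNP2 and VN and the 5th largest log2 fold change. Leaving out any 1 library, VN 1 included, kept the log2 fold change between VNP2 and VN within 0.96 to 1.01. SLIT1 and SLIT3 are genes the study itself singled out from these samples, so their direction is not independent evidence.

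SLIT3 (ENSG00000184347, chr5:168661733-169301129, minus strand), the least abundant Slit, had 1059.6 and 1105 normalized counts in the Matrigel libraries, 822, 855 and 928 in those on VN and 1467, 1374 and 1416 in those on VNP2. The 3 groups did not overlap, with VN lowest and VNP2 highest. SLIT3 was 1.64-fold higher on VNP2 than on VN (95% interval 1.498 to 1.79; log2 fold change 0.71, SE 0.057, adjusted p = 9.36e-05) and 1.31-fold higher than on Matrigel (adjusted p = 0.00199). On VN it fell by 0.32 on the log2 scale relative to Matrigel (SE 0.065, adjusted p = 0.00861). Without Matrigel library 3 this last difference was -0.29 with an adjusted p of 0.0789.

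SLIT2 (ENSG00000145147, chr4:20253260-20620561, plus strand), the most abundant of the 3 ligands and of all 9 genes, had 21763 and 21017 normalized counts in the Matrigel libraries, 20261, 21039 and 20885 in those on VN and 21143, 21523 and 21514 in those on VNP2. No comparison passed the test (adjusted p from 0.382 to 0.997). The intervals were narrow: the ratio of VNP2 to VN lay between 0.988 and 1.08, and that of VNP2 to Matrigel between 0.952 and 1.05. The 3 Slits thus did not move as 1 group, and of the 2 hosts of miR-218 SLIT3 was called and SLIT2 was not.

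The makeup of the Slit pool differed accordingly. SLIT1 contributed 26.0% and 26.0% of the summed Slit TPM in the Matrigel libraries, 26.8% to 29.1% on VN and 41.0% to 42.2% on VNP2. SLIT2 went from 69.9% ± 0.158 (SD, n = 2) on Matrigel to 54.3% ± 0.642 (SD, n = 3) on VNP2, although its own level was similar. The summed Slit level was 188 ± 3.55 TPM on Matrigel, 195 ± 3.65 on VN and 254 ± 3.98 on VNP2. These shares and sums are descriptions, without a test. TPM lacks the scaling between libraries that normalized counts have. From Matrigel to VN, mean SLIT2 went up from 131.3 to 134.5 TPM but down from 21390 to 20729 normalized counts. Small differences of summed TPM between coatings, here and below, can therefore come from the scale alone.

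**Figure D1:**
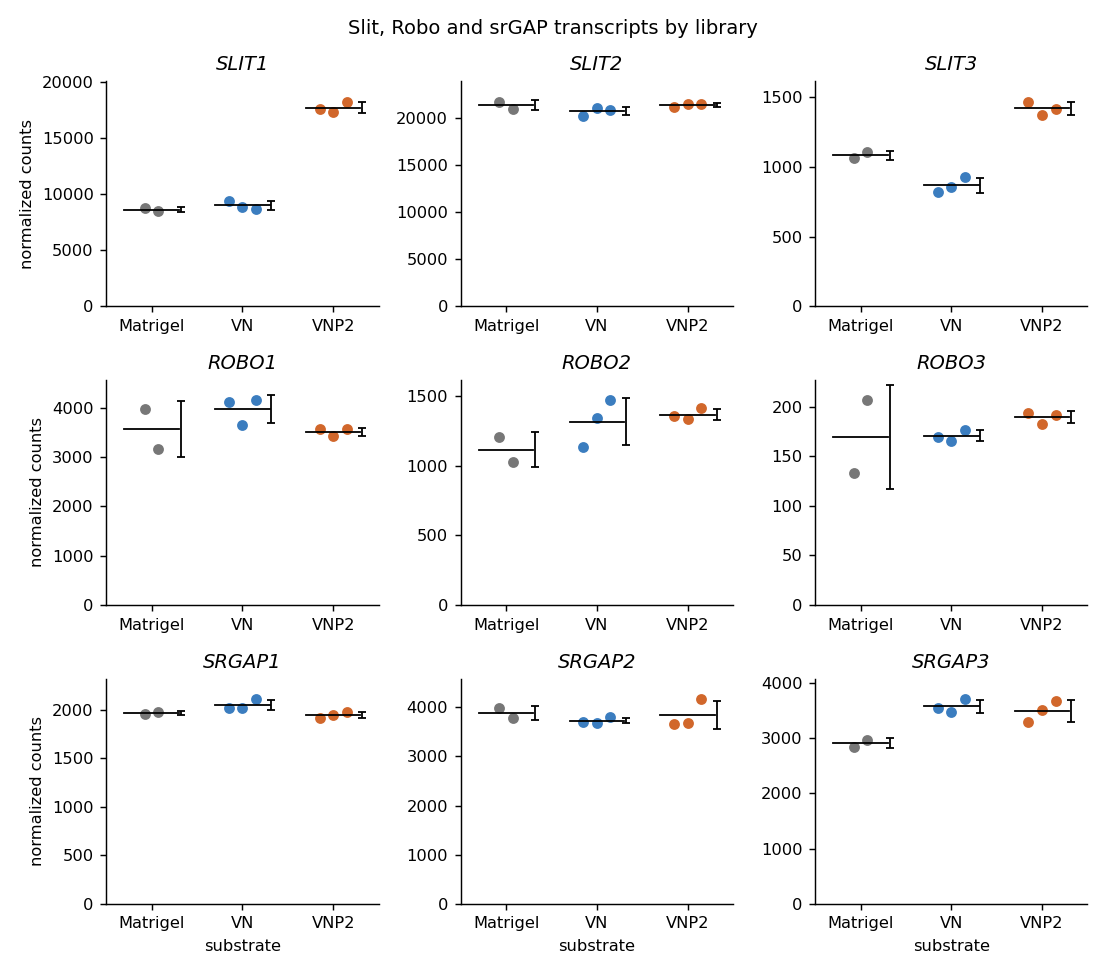
Normalized counts (vertical axes, starting at 0) of the 9 genes by coating; each point is a library, the horizontal line is the mean and the bar the SD (2 libraries on Matrigel, 3 on VN and 3 on VNP2). SLIT1 separates VNP2 from both other coatings, SLIT3 takes 3 separate levels, and SRGAP3 is lower on Matrigel, from 2838 to 2969.7, than on VN or VNP2.

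ROBO1 (ENSG00000169855, chr3:78597240-79767815, minus strand), the main Slit receptor of many neurons, had 3968 and 3167 normalized counts in the Matrigel libraries, 4110.2, 3648 and 4152 in those on VN and 3563, 3418 and 3564 in those on VNP2. The 2 Matrigel libraries differed more from each other than the group means did. ROBO1 passed no test: VNP2 against VN gave a log2 difference of -0.18 (SE 0.077, unadjusted p = 0.0445, adjusted p = 0.239), with all 3 VNP2 libraries below all 3 VN libraries. The value depends on how transcript length enters. A short transcript, ROBO1-203, was assigned 51.8 estimated counts in Matrigel 2, 40.5 in VN 1, 34.7 in VN 3 and 0 in the other 5 libraries, and at 11.99% to 17.3% of the gene's TPM in those 3 it shortened the average length used for scaling. Without the length correction ROBO1 was higher on VN than on Matrigel (log2 fold change 0.14, adjusted p = 0.0442), and without Matrigel library 2 likewise (0.33, adjusted p = 0.0379).

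ROBO2 (ENSG00000185008, chr3:75906695-77649964, plus strand), a Slit receptor with a closely related extracellular part, had 1203 and 1028 normalized counts in the Matrigel libraries, 1134, 1341 and 1469.9 in those on VN and 1355, 1336 and 1412 in those on VNP2. All VNP2 libraries were above both Matrigel libraries, while VN overlapped with each of the others. The log2 difference between VNP2 and Matrigel was 0.30 (SE 0.10, adjusted p = 0.0795) and that between VN and Matrigel 0.24 (SE 0.10, adjusted p = 0.153), so neither passed. The first lies close to the threshold: it passed with DESeq2 (adjusted p = 0.0378), without the filter on low counts (0.0203), without the length correction (0.00803) and without library VN 1 (0.0207). The second passed without the length correction (0.00734) and without VN 1 (0.0175).

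ROBO3 (ENSG00000154134, chr11:124865386-124881470, plus strand), a divergent receptor known in mammals for letting commissural axons cross the midline, was the lowest of the 9 genes by counts. The Matrigel libraries had 133 and 207 normalized counts, the VN libraries 169.7, 166 and 177 and the VNP2 libraries 194, 183 and 192. The Matrigel libraries spanned both other groups, and no comparison passed (adjusted p from 0.558 to 0.948). The Matrigel spread depends on the length correction, with average transcript lengths of 1505 and 1139 bases in Matrigel 2 and Matrigel 3. Before it, the Matrigel libraries had 145 and 171 estimated counts, below the 173 to 185 on VN and the 180 to 197 on VNP2. The interval of the ratio of VNP2 to Matrigel ran from 0.872 to 1.45, which leaves room for a change of the size seen in SLIT3.

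None of the 3 receptors was called by edgeR in the 3 comparisons, with 3 of the 9 tests at an unadjusted p under 0.05, and DESeq2 called 1, ROBO2 on VNP2 against Matrigel. With 15.2% (VN against Matrigel), 16.6% (VNP2 against Matrigel) and 5.18% (VNP2 against VN) of all genes called, 0 of 3 is near the background. The summed Robo level was 40.9 ± 3.30 TPM (SD, n = 2) on Matrigel, 48.3 ± 3.26 on VN and 46.0 ± 1.18 on VNP2. The ratio of summed Slit to summed Robo TPM was 4.41 and 4.81 in the Matrigel libraries, 4.12, 4.24 and 3.77 with VN and 5.42, 5.62 and 5.48 with VNP2, so it was higher in each VNP2 library than in any other.

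**Figure D2:**
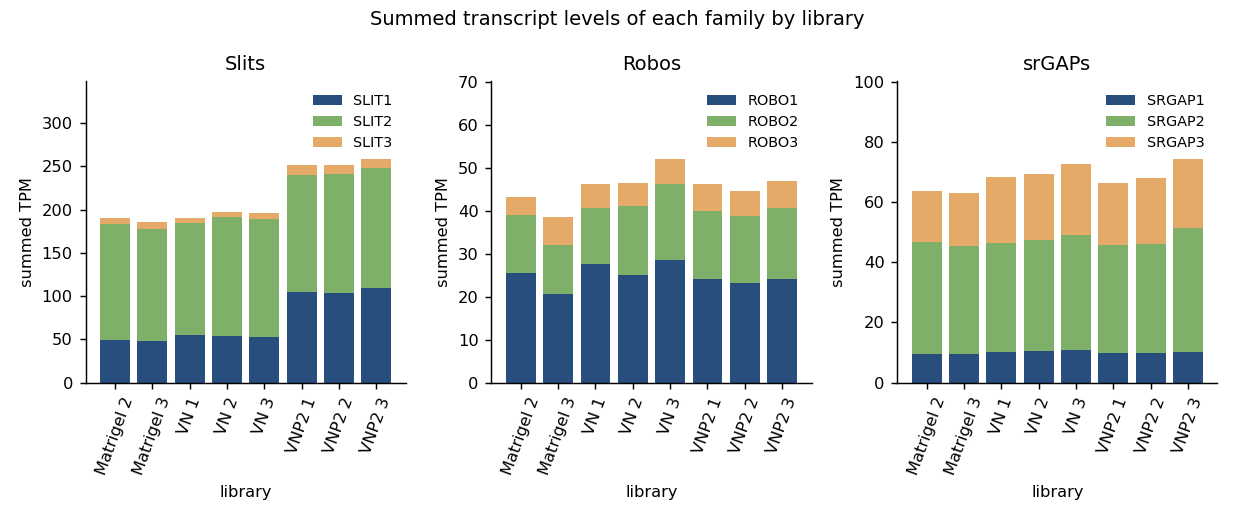
Summed TPM (vertical axes, starting at 0) of the Slits, Robos and srGAPs in each of the 8 libraries, stacked by gene. The SLIT1 part of the Slit bars is larger in the 3 VNP2 libraries, which reach 251 to 258 TPM, while the Robo and srGAP bars vary less between coatings.

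Among the srGAPs, SRGAP3 (ENSG00000196220, chr3:8980591-9363053, minus strand) was the only called member. It had 2838 and 2969.7 normalized counts in the Matrigel libraries, 3541, 3467 and 3705 in those on VN and 3282, 3511 and 3672 in those on VNP2. Both Matrigel libraries were below all 6 others. SRGAP3 was 1.23-fold higher on VN than on Matrigel (95% interval 1.13 to 1.34; log2 fold change 0.30, SE 0.054, adjusted p = 0.00484) and 1.201-fold higher on VNP2 than on Matrigel (1.11 to 1.31; adjusted p = 0.00729). VNP2 and VN did not differ detectably (ratio between 0.908 and 1.05). Without Matrigel 2 neither call was kept, at log2 fold changes of 0.27 for VN (adjusted p = 0.0598) and 0.23 for VNP2 (0.0790). Without Matrigel 3 both passed (0.33 and 0.30, adjusted p = 0.0275 and 0.0334).

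The alternative transcripts of SRGAP3 separated the coatings further. SRGAP3-201, with the 31-base exon, received 132 and 79.3 estimated counts in the Matrigel libraries, 168, 243 and 338 in the VN libraries and 426, 488 and 610.3 in the VNP2 libraries. SRGAP3-202, with the 103-base exon, received 2544 and 2617 in the Matrigel libraries, 3070.5, 2943 and 3026 in the VN libraries and 2745, 2749 and 2832 in the VNP2 libraries. Of the pair, SRGAP3-201 made up 4.93% and 2.94% in the Matrigel libraries, 5.19%, 7.63% and 10.1% with VN and 13.4%, 15.1% and 17.7% with VNP2. The 3 groups did not overlap, by a narrow margin between Matrigel 2 and VN 1. Other annotated SRGAP3 transcripts hold both exons, and the counts are the authors' Salmon estimates, which divide reads of shared exons between transcripts, so the shares are given without a test.

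**Figure D3:**
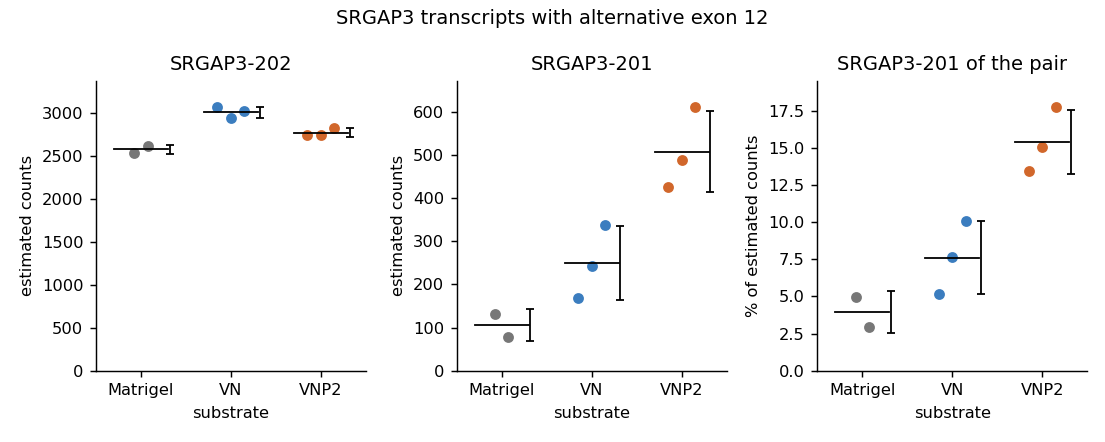
Estimated counts of SRGAP3-202 and SRGAP3-201 and the percentage of SRGAP3-201 in the pair (vertical axes, starting at 0) by coating; points are libraries, lines means and bars SDs. SRGAP3-201 is highest in the 3 VNP2 libraries, at 13.4% to 17.7% of the pair, and lowest in the 2 Matrigel libraries.

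SRGAP1 (ENSG00000196935, chr12:63844293-64162221, plus strand) had 1956 and 1981 normalized counts in the Matrigel libraries, 2024, 2019 and 2114 in those on VN and 1914, 1948 and 1977 in those on VNP2. It passed no test (adjusted p from 0.335 to 0.860), and the intervals of its 3 ratios lay between 0.891 and 1.117. SRGAP2 (ENSG00000266028, chr1:206203345-206464443, plus strand), the most abundant srGAP, ranged from 3664 to 4167 normalized counts with overlapping groups and passed no test (adjusted p from 0.544 to 0.888). SRGAP2 reads are shared with its human-specific partial copies, so its values are uncertain. Of these copies, SRGAP2B had 2224 ± 165 normalized counts on Matrigel and 1895 ± 116 on VNP2 (log2 fold change -0.23, adjusted p = 0.0321), and SRGAP2C and SRGAP2D passed no test. The SRGAP2B call was lost without Matrigel 2 and without VNP2 3.

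In the other members, transcript shares are given by their range, without a test; no ROBO3 transcript reached a mean of 100 estimated counts. SLIT1-201 made up 72.2% to 79.9% of SLIT1 TPM over the 8 libraries and SLIT1-204, which ends earlier, 18.5% to 26.0%. SLIT2-204 made up 71.3% to 78.2% of SLIT2 and SLIT3-201 57.8% to 72.2% of SLIT3. For ROBO1, transcripts from the far upstream start carried 30.3% ± 1.63 (SD, n = 2) of the TPM of its main coding transcripts on Matrigel, 32.2% ± 4.49 (n = 3) on VN and 34.8% ± 0.691 (n = 3) on VNP2. For ROBO2 the far upstream start carried 26.1% ± 7.77, 23.3% ± 2.58 and 25.3% ± 3.29. For ROBO1 the VNP2 libraries (34.1% to 35.5%) lay above both Matrigel libraries (29.1% and 31.4%) and VN overlapped with both groups, while for ROBO2 all groups overlapped. SRGAP2-204, a short SRGAP2 transcript, made up 20.5% and 15.5% of SRGAP2 TPM in the Matrigel libraries and 10.5% to 14.5% in the 6 others. It rests on few reads, from 80.8 estimated counts in VN 3 to 169 in Matrigel 2. SRGAP2 reads are shared with the partial copies, and their part in this share was not tested.

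Taking the 9 genes as a list, 3 were called across the 3 coatings in 1 joint test (SLIT1, SLIT3 and SRGAP3), which is 3 of 9 against 19.3% of all genes tested. Between VNP2 and VN 2 of 9 were called, both higher on VNP2, against 5.18% of all genes (3.07% higher and 2.1% lower). These 2 are SLIT1 and SLIT3, which the study named from this comparison of these samples. The 9 genes were also chosen with earlier results known. The counts in this paragraph are therefore descriptions and not independent evidence, and none was tested against its background. Between VNP2 and Matrigel 3 of 9 were called, all higher, against 16.6% of all genes (7.45% higher and 9.13% lower). Between VN and Matrigel 2 of 9 were called, SRGAP3 higher and SLIT3 lower, against 15.2% of all genes (5.81% higher and 9.41% lower), a share near the background for so few genes. The median log2 fold change of the members was 0.06, 0.17 and 0.05 for VN against Matrigel, VNP2 against Matrigel and VNP2 against VN, beside 0.0083, 0.0030 and -0.0026 over all genes tested. Libraries did not overlap for 3, 4 and 6 of the 9 genes in the same order, against 44.4%, 48.1% and 23.5% of all genes. All 3 comparisons come from 1 fit and each shares libraries with the others, so none is independent of the rest.

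**Figure D4:**
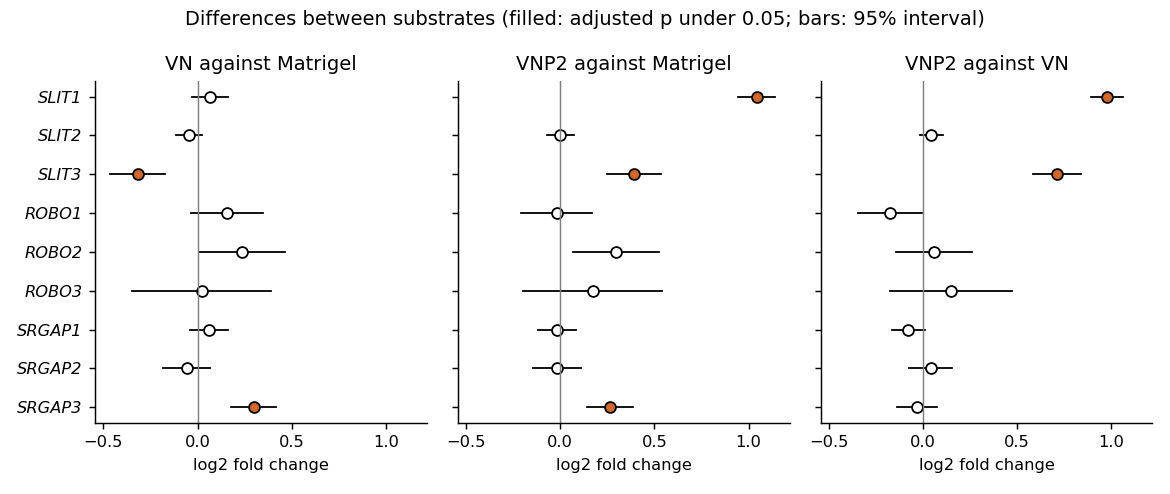
Log2 fold change (horizontal axes) of the 9 genes in the 3 comparisons between coatings, with 95% intervals as bars; filled points passed an adjusted p of 0.05. SLIT1 and SLIT3 are filled on VNP2 against both other coatings and SRGAP3 on VN and VNP2 against Matrigel, while the 3 Robos are open throughout.

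Of 17 further genes whose products bind or process Slits and Robos, 15 could be tested; ROBO4, the endothelial family member, had 1 estimated count over all libraries and PRRG4 had 16. Between VNP2 and VN 2 of 15 were called, both higher, NTN1 and DCC (5.18% of all genes were called). Between VNP2 and Matrigel 5 were higher and 2 lower (16.6% of all genes called), and between VN and Matrigel 2 were higher and 3 lower (15.2%). The median log2 fold change of the partners was 0.09, 0.02 and -0.03 in the same order. Without Matrigel 2 the calls between VNP2 and Matrigel went down to 3 higher and 1 lower, with FLRT1, SDC3 and DAG1 lost. Without Matrigel 3 they were 3 higher and 2 lower, as without VNP2 2, with FLRT1 and SDC3 lost. DCC, the netrin receptor that Robo can silence, ranged from 621 to 738 normalized counts in the Matrigel libraries, from 1138 to 1194 with VN and from 1409 to 1590.3 with VNP2, 3 groups without overlap. Its log2 fold change was 1.12 for VNP2 against Matrigel (adjusted p = 9.16e-06), 0.77 for VN against Matrigel (0.000186) and 0.34 for VNP2 against VN (0.0198). The last of these was not called without VN 2, VN 3 or VNP2 3.

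NTN1, the midline attractant netrin-1, showed the same order of coatings as SLIT3. It ranged from 21820.2 to 21905 normalized counts in the Matrigel libraries, from 17337 to 18744 with VN and from 26314 to 26563 with VNP2. The log2 fold change was 0.57 for VNP2 against VN (adjusted p = 1.45e-05), 0.28 for VNP2 against Matrigel (0.000562) and -0.29 for VN against Matrigel (0.000506). FLRT2, a membrane protein of the family whose member FLRT3 acts as a Robo1 co-receptor, was higher on VN (log2 fold change 0.51, adjusted p = 0.00414) and VNP2 (0.69, adjusted p = 0.000439) than on Matrigel, and FLRT1 was higher on VNP2 than on Matrigel (0.67, adjusted p = 0.0270). FLRT3 itself was not called. The syndecan SDC3 was higher on VNP2 than on Matrigel by 0.14 on the log2 scale (adjusted p = 0.0254). DAG1, encoding dystroglycan, which binds Slit, was lower on VN (-0.16, adjusted p = 0.0201) and VNP2 (-0.21, adjusted p = 0.00438) than on Matrigel, as was NEDD4, an ubiquitin ligase (-0.30 and -0.37, adjusted p = 0.00382 and 0.000838). The DAG1 call on VN was lost whichever Matrigel library was left out.

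Downstream of the receptors, all 22 effector genes were tested and none was called between VNP2 and VN by edgeR, DESeq2 or limma, with 3 at an unadjusted p under 0.05 in each; at 5.18% of all genes called, 0 of 22 is near the background. Against Matrigel, 4 were higher and 6 lower on VN (15.2% of all genes called), and 4 were higher and 5 lower on VNP2 (16.6%). Their median log2 fold change was 0.01 and 0.03 against Matrigel and 0.02 between VNP2 and VN. Higher on both were ABL1, a kinase acting on Robo, the kinases PAK1 and PAK3, and CLASP2, which binds microtubule ends. PAK3 had the largest rise among the effectors, with a log2 difference from Matrigel of 0.40 for VN and of 0.44 for VNP2 (adjusted p = 0.00162 and 0.000669). Lower on both were the actin regulators ENAH, VASP, CAP1 and CAP2 and the GTPase RAC1. CAP1, which recycles actin monomers, fell by 0.41 on VN and by 0.38 on VNP2 on the log2 scale (adjusted p = 0.000146 and 0.000177). The adaptor NCK2 was called lower on VN (-0.18, adjusted p = 0.0181), and its difference between VNP2 and VN was not called. Whichever Matrigel library was left out, ENAH, CAP1, CAP2 and PAK3 kept their calls against Matrigel on VN and VNP2. ABL1 and VASP each lost their calls on VN and on VNP2 without 1 or the other Matrigel library. RAC1 lost its call on VN without Matrigel 3, and its call on VNP2 whichever Matrigel library was left out. PAK1, CLASP2 and NCK2 lost their calls on VN whichever was left out. Without library VN 1, 2 effectors were called between VNP2 and VN, EVL and SOS1, and 4 partners (DCC, NTN1, PLXNA1 and SDC3). Without Matrigel 3, the calls between VN and Matrigel went down to 1 higher and 4 lower effectors and to 2 partners, DCC and NTN1. The effectors called in that comparison were 2 higher and 4 lower without Matrigel 2, and 5 higher and 7 lower without VN 1.

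**Figure D5:**
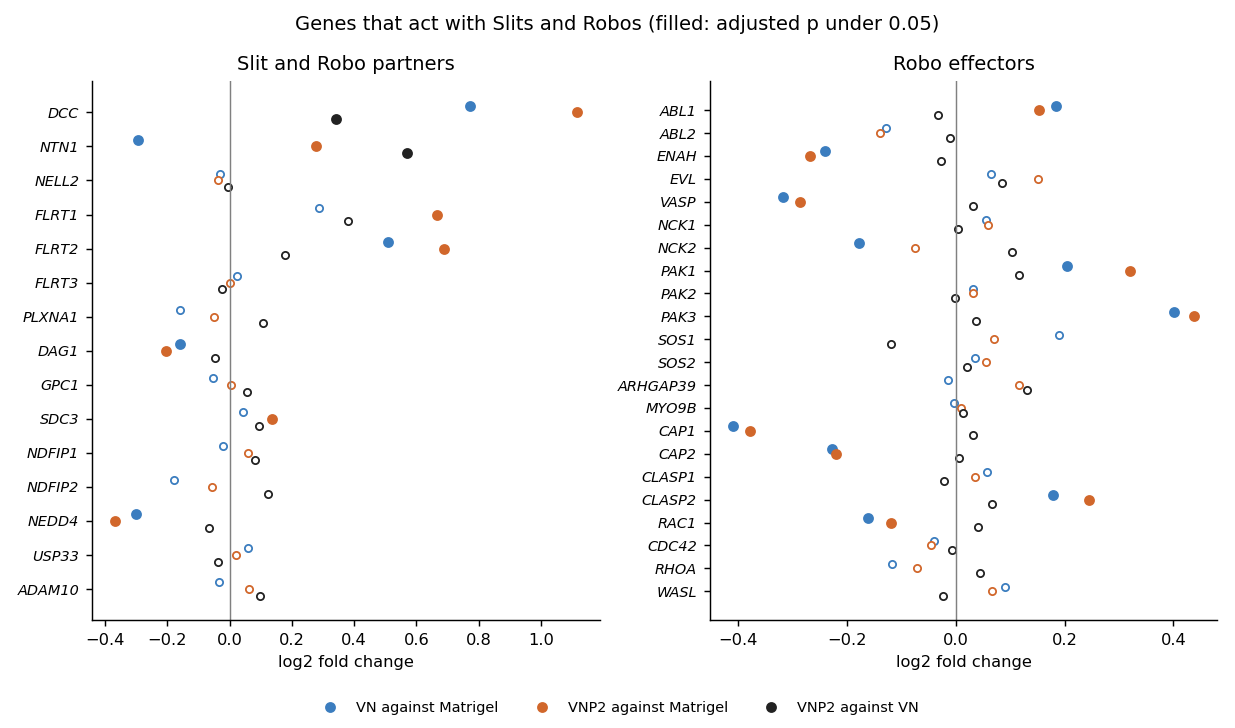
Log2 fold change (horizontal axes) of the 15 tested partner genes and the 22 effector genes in the 3 comparisons; filled points passed an adjusted p of 0.05. DCC and NTN1 are the partners filled between VNP2 and VN, and no effector is.

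Markers of other cells that the cultures could hold moved with the coatings as well. The summed level of the 6 floor plate genes, of which 5 were tested, was 447 to 454 TPM on Matrigel, 456 to 467 on VN and 528 to 547 on VNP2; NTN1 is itself 1 of the 6. NTN1 was the called floor plate gene between VNP2 and VN. Against Matrigel, SPON1 was higher on VNP2, SHH was lower on both (log2 fold change -0.50 for VN and -0.62 for VNP2), and FOXA2 was not called. Motor neurons also express Slits, and 4 of 4 tested motor neuron genes were higher on VNP2 than on Matrigel and 2 of 4, SLC18A3 among them, than on VN; their summed level was 21.0 to 22.5 TPM on Matrigel, 28.3 to 30.0 on VN and 38.7 to 40.4 on VNP2, with the defining markers MNX1 and LHX3 at 13 and 5 estimated counts in all. Of 7 neuronal genes, 4 were higher on VN and 5 on VNP2 than on Matrigel, and 2, STMN2 and DCX, were higher on VNP2 than on VN, with summed levels of 718 to 749.7 TPM, 808 to 862 and 874 to 893. All 5 tested OPC genes were higher on VNP2 than on Matrigel, and 2 of the 5 were higher on VN than on Matrigel. Their summed level was 107 to 109 TPM on Matrigel, 136 to 138 on VN and 138 to 145 on VNP2. Between VNP2 and VN 1 OPC gene, NKX2-2, was called, higher on VNP2. The part of these cell types in the Slit, Robo and srGAP results was not tested.

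Many of these marker calls depended on 1 library, and all are to be read beside the 15.2%, 16.6% and 5.18% of all genes called for VN against Matrigel, VNP2 against Matrigel and VNP2 against VN. On VNP2 against Matrigel, 2 of the 4 motor neuron genes, ISL1 and SLC18A3, were called without Matrigel 2, without Matrigel 3 or without VNP2 2. Of the OPC genes in that comparison, NKX2-2, OLIG1 and OLIG2 were called without Matrigel 2 and CSPG4, OLIG1 and PDGFRA without Matrigel 3, so OLIG1 was called in both. The neuronal genes called there numbered 3 without Matrigel 3. NKX2-2 on VNP2 against VN was not called once VN 2, VN 3 or any VNP2 library was left out. Without VN 1, the neuronal gene TUBB3 was called lower on VN than on Matrigel and higher on VNP2 than on VN, and the motor neuron genes called on VN against Matrigel went from 2 to 1.

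Roof plate genes summed to at most 2.55 TPM and astrocyte genes to at most 0.704 TPM in any library, and the lowest adjusted p of either list was 0.116. Mesenchymal genes summed to 508 to 519 TPM on Matrigel, 578 to 615 on VN and 498 to 532 on VNP2, and against Matrigel 3 of the 8 were called higher on VN with 2 lower, and 5 on VNP2 with 2 lower. Between VNP2 and VN 1 mesenchymal gene was higher and 1 lower, COL3A1 and COL1A1; without VN 1 these were 1 higher and 3 lower, and COL3A1 was not called without VN 2, VN 3, VNP2 1 or VNP2 3. The 5 higher on VNP2 than on Matrigel were 2 without Matrigel 3. Neural crest genes summed to 24.7 to 31.3 TPM with 1 call, TFAP2A, higher on VNP2 than on Matrigel and not called without Matrigel 2. The 5 endothelial genes summed to 10.4 to 12.3 TPM, with 2 of 4 tested, CDH5 and TEK, lower on VN and VNP2 than on Matrigel and PECAM1 at 36 estimated counts in all; CDH5 was not called without Matrigel 2. Of 4 tested neural progenitor genes, NES and VIM were lower on both VN and VNP2 than on Matrigel, with sums of 3335 to 3419 TPM on Matrigel, 2794 to 2837 on VN and 3041 to 3077 on VNP2. HES5 was higher on VN than on Matrigel and lower on VNP2 than on VN (the latter not without VN 3, VNP2 1 or VNP2 2), and VIM was higher on VNP2 than on VN. SLIT1-AS1 and SLIT3-AS1, antisense to the Slits, had 0 estimated counts.

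For each Slit and Robo, the 2 genes whose log2 normalized counts followed it most closely over the 8 libraries were sought among 9832 genes. The points share coatings and libraries, so the correlations are descriptions. SLIT1 ran closest to FOXJ1, a transcription factor of motile cilia (Pearson r = 0.995), with means of 2597 ± 9.98 (SD, n = 2) normalized counts for Matrigel, 2779.5 ± 72.4 (n = 3) for VN and 4059 ± 119 (n = 3) for VNP2, and to ERMP1, a peptidase of the endoplasmic reticulum (r = 0.993). SLIT3 ran closest to KHDRBS3, an RNA-binding protein that regulates splicing (r = 0.994), and CNTNAP3, a cell adhesion protein (r = 0.993), both lowest on VN and highest on VNP2. For SLIT2, the closest were SOWAHC (r = 0.962) and SH3D19 (r = 0.945). For the Robos they were SLX4 and ILKAP (ROBO1, r = 0.954 and 0.937), SLF1 and NFYB (ROBO2, r = 0.972 and 0.969), and TMEM39B and DMPK (ROBO3, r = 0.924 and 0.922).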

How the data were processed

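Polyadenylated RNA of 8 libraries (2 on Matrigel, 3 on VN and 3 on VNP2) was sequenced paired-end. The authors trimmed reads with Trim Galore and quantified GENCODE 32 transcripts with Salmon. The deposited values are estimated counts and TPM per transcript for each library, and a gene table of normalized counts, a signal the authors made with DESeq2 (1.27.12). How Salmon was told the strand is not given in the sources used here. Here estimated counts were summed per gene with GENCODE 29 names (GRCh38; 205225 of 226608 transcripts, 98.8% to 98.9% of counts), rounded, and corrected for average transcript length. Genes passing a count minimum of 10 (15 in total) were tested with edgeR 4.0.16 (TMM, quasi-likelihood, all 8 libraries in 1 fit, common dispersion 0.00370), with Benjamini-Hochberg adjustment over all 18201 genes and a threshold of 0.05. Intervals of fold changes are 95% t intervals. Normalized counts in the text are those of this fit. Transcripts with a mean of at least 100 estimated counts were described. On simulated counts for VNP2 against VN, 17948 genes were tested, the 200 changed ones included. Of the changed genes 196 were recovered, and 9 unchanged genes were called. The simulation gave every gene the common dispersion and planted changes only in genes with a mean of at least 100 normalized counts. Most differences among the members were smaller than the planted ones. The simulation therefore checks the procedure and does not measure power or false calls for these genes.

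The 9 genes and the gene lists were chosen with earlier results of these data known. Named beyond them are list genes called in any comparison, and for each Slit and Robo the 2 genes with the highest Pearson r among those with a mean of at least 500 normalized counts. Promoter and microRNA sequences are from RefSeq (GRCh38.p14), with all 3 Slits and both miR-218 genes matched. Replicate numbers did not pair the libraries, so no block was used. Alternatives were DESeq2 1.42.0, RLE scaling, no filter, no length correction, a replicate block, limma 3.58.1 on log2 of the authors' normalized table plus 1, and leaving out each library. Single-gene results for 2 of the marker genes are not reported here.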

Additional observations from a re-analysis of the deposited data

How the results depend on the processing

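SLIT1 and SLIT3 kept their direction and their call on VNP2 against both other coatings under every alternative run, and no called member reversed. Of 504 member tests under alternatives, 487 stayed on the same side of the threshold, 13 passed newly (all ROBO1 or ROBO2) and 4 no longer passed (SRGAP3 in 3 tests without Matrigel 2, with an adjusted p of 0.0895 in the joint test, and SLIT3 on VN against Matrigel without Matrigel 3). Without the length correction 4 members were called between VN and Matrigel. Leaving out 1 library at a time, the calls among members ranged from 3 to 4 across coatings, from 1 (without Matrigel 3) to 3 (without VN 1) for VN against Matrigel, from 2 (without Matrigel 2) to 4 (without VN 1) for VNP2 against Matrigel, and stayed at 2 for VNP2 against VN. The calls among all genes ranged from 1881 to 4981, 1184 to 3911, 1611 to 3653 and 544 to 1979 in the same order, lowest for the comparisons with Matrigel when a Matrigel library was left out. The 1979 calls between VNP2 and VN were obtained without VN 1, against 942 with it. A lone remaining Matrigel library was assumed to vary like the other groups.

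Samples with the same replicate number did not deviate together (correlations of -0.05 to 0.02), so the numbers were not taken as pairs. With a replicate block, 3, 2, 4 and 2 members and 3990, 3405, 3155 and 1167 genes were called in the joint test, VN against Matrigel, VNP2 against Matrigel and VNP2 against VN, with ROBO2 added for VNP2 against Matrigel (log2 fold change 0.35, adjusted p = 0.0479). Shares of estimated counts in place of TPM put SLIT1-201 at 84.8%, SLIT2-204 at 81.6% and SLIT3-201 at 56.9%, because short transcripts weigh less in counts. The ratios of levels from the authors' normalized table differed from those of TPM by more than the spread in 8 of 27 cases. Normalized counts carry a scaling between libraries that TPM lacks, and the part of this in the differences was not tested. With 2 Matrigel libraries, which the length correction spread apart for ROBO3, its 95% interval on VNP2 against Matrigel reached from -0.20 to 0.54 on the log2 scale. A difference of the size called in SRGAP3 was therefore not detectable there.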
